A study of Mus musculus with 6 samples.

Results

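Antigen presentation and interferon gamma genes were described in prostate tumours of mice that carried marrow with or without an intact coagulation factor X gene (F10) in myeloid cells. The members were 40 genes chosen by symbol, and all 40 were among the 21718 genes of the deposited count table and among the 15963 genes that passed the filter on low counts. They fall into 14 MHC class I genes, 9 MHC class II genes, 10 interferon-inducible GTPases and 7 regulators and co-stimulatory genes. The rule was the symbol alone, although earlier results of these data were known when the symbols were listed.

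Every recipient was a mouse of the same genetic model of prostate tumours, shared by both groups, and the labels do not name what drives the model's deletion. At 6 weeks of age it was irradiated with 900 rad and given bone marrow, at 8 weeks it was castrated, and its tumour was taken 16 weeks after castration. In the F10-intact group (3 samples, numbered 1, 3 and 4 in the labels) the marrow donors were F10fl/fl without Cre. In the F10-deleted group (3 samples, also numbered 1, 3 and 4) the donors were F10fl/fl; LysM-Cre+. LysM-Cre is driven by the lysozyme 2 gene of macrophages, monocytes and neutrophils, so lymphocytes of donor origin are not targeted, and tumour epithelium, stroma and any host leukocytes that outlive irradiation keep their own F10. The labels give neither the strain, nor the efficiency of deletion, nor whether each sample was 1 animal, so each p-value is set against a spread among samples that may in part be technical.

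MHC class I molecules are built from a heavy chain and beta-2-microglobulin, are loaded in the endoplasmic reticulum with peptides carried in by the TAP transporter, and are made by nearly every nucleated cell. MHC class II molecules are made mainly by dendritic cells, macrophages and B cells, where the invariant chain (Cd74) and the H2-DM and H2-O proteins govern peptide loading. Interferon gamma, secreted by T and NK cells, acts through its receptor and transcription factors such as IRF1 to induce both systems, the class II transactivator Ciita, the class I transactivator Nlrc5, and the guanylate-binding proteins (Gbp) and immunity-related GTPases (Irgm1, Irgm2, Igtp, Iigp1) that attack intracellular microbes.

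Of the 40 genes, 17 lay on chromosome 17 within 33915899 to 37274484 (GENCODE M21 on GRCm38), the mouse MHC. The GTPases sat in separate clusters, with Gbp2, Gbp3, Gbp5 and Gbp7 on chromosome 3 (142493978 to 142638008), Gbp4 and Gbp6 on chromosome 5 (105115767 to 105293698) and Irgm1, Irgm2 and Igtp on chromosome 11. RefSeq promoter windows (GRCm38.p6, 250 bases before to 50 after the start site) matched 29 of the 40 genes by symbol. They were searched on both strands for short motifs known from these pathways. The core of the interferon-stimulated response element, GAAA and again GAAA separated by 2 bases of any kind, was in the windows of 7 of 7 GTPases, 3 of 11 class I genes and 0 of 6 class II genes, against 3.99% of all 27025 symbols in the promoter table. A form known from class I promoters, GAA and then GAAAC separated by 2 bases of any kind, can overlap the first. It was in 6 of 11 class I, 3 of 7 GTPase and 0 of 6 class II windows, and in 2.01% of all symbols. The gamma-activated site TTCNNNGAA was in 4 of 7 GTPase, 1 of 11 class I and 0 of 6 class II windows, and in 9.55% of all symbols. The Y box core ATTGG, the inverted CCAAT sequence of MHC promoters, was in 6 of 6 class II, 10 of 11 class I and 2 of 7 GTPase windows, and in 41.1% of all symbols, while its longer form CTGATTGG was in 3 of 6, 6 of 11 and 0 of 7, and in 4.7%. These matches are letters in a window and not measured binding.

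The windows below are shown because they belong to the genes on which the comparisons between samples turn. In the GTPase windows (Gbp5, Igtp, Irgm2 and Gbp2), capitals mark both forms of the response element and TTCNNNGAA, on either strand, where they occur. Capitals mark TTCNNNGAA in Irf1, CTGATTGG in H2-Aa and H2-Eb1, and the class I form of the response element and CTGATTGG, each as its reverse complement, in H2-Q6.
Gbp5, chr3:142496684-142496983, plus strand: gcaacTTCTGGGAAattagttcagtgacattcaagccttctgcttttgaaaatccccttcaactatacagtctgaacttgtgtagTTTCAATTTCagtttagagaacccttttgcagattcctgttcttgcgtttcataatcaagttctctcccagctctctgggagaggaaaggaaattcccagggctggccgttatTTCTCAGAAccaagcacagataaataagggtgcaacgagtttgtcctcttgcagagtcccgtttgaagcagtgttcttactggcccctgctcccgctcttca
Igtp, chr11:58199306-58199605, plus strand: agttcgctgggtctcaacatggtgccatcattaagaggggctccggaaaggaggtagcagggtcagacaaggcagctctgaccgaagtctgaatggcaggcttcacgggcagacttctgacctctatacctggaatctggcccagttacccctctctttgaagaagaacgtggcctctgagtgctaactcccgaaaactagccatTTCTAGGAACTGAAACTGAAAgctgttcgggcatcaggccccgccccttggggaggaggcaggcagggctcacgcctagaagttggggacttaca
Irgm2, chr11:58214727-58215026, plus strand: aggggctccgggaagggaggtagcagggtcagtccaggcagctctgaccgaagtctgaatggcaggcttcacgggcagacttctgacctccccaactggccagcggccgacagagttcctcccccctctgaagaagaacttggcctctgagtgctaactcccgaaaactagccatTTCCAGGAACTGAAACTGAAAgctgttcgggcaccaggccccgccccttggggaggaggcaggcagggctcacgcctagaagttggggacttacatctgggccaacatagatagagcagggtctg
Gbp2, chr3:142620413-142620712, plus strand: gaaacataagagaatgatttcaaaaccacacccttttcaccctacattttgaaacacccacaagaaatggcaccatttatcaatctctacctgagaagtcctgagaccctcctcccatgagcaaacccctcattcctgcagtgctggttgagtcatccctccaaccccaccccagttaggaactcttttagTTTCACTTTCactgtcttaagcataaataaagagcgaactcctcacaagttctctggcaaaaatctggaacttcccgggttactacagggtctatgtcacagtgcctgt
Irf1, chr11:53769764-53770063, plus strand: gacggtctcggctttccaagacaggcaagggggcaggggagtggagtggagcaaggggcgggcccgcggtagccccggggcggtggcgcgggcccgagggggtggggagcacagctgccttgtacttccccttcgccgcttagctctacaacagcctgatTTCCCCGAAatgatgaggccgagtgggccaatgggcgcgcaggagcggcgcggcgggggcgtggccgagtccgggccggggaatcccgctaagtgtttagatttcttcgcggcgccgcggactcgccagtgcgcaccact
H2-Aa, chr17:34287774-34288073, minus strand: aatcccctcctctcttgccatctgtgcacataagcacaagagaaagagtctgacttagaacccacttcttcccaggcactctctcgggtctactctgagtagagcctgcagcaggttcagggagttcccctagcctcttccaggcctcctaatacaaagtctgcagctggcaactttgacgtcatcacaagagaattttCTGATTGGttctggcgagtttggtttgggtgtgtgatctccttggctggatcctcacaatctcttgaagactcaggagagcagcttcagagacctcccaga
H2-Eb1, chr17:34305617-34305916, plus strand: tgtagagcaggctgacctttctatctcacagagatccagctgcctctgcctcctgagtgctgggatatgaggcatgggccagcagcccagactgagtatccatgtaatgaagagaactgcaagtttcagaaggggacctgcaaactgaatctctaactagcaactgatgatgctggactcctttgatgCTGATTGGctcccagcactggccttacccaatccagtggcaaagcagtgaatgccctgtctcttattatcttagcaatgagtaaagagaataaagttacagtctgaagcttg
H2-Q6, chr17:35424600-35424899, plus strand: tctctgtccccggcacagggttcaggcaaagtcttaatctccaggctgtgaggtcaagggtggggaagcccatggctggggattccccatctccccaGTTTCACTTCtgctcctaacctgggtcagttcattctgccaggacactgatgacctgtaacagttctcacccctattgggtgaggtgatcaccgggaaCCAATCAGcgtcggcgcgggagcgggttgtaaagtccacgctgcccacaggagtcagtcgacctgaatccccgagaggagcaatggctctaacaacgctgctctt
The Gbp5 window holds 2 gamma-activated site matches, and its response element begins 165 bases before the start site. The annotated genes Igtp and Irgm2 overlap on the plus strand of chromosome 11. In both windows TTCNNNGAA and both forms of the response element overlap in a single stretch, which begins 45 bases before the start in Igtp and 75 in Irgm2.

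The libraries held between 9237308 and 11821588 counts, and F10-intact sample 4 stood apart from the other 5 on the first principal component, which carried 49.1% of the variance. F10 itself had 2, 6 and 17 counts in F10-intact samples 1, 3 and 4 and 7, 4 and 9 in F10-deleted samples 1, 3 and 4. The groups overlapped, and the gene was below the filter. Reads outside the floxed segment and from cells without Cre also count there, so these values do not measure the deletion. The tissue was labelled prostate, and 6 epithelial markers, none of them specific to prostate, summed to 4742 to 5376 CPM in the F10-intact and 5169.6 to 5755 CPM in the F10-deleted samples (CPM is the count scaled to library size, here with TMM factors). The leukocyte gene Ptprc was at 42.1, 57.3 and 54.7 CPM in F10-intact samples 1, 3 and 4 and 44.3, 39.1 and 50.6 CPM in F10-deleted samples 1, 3 and 4. In bulk tumour RNA, fewer cells of a type and less RNA per cell cannot be told apart. Across all genes edgeR called 7, all with higher values in F10-deleted samples, or 0.0439% of those tested, and 2 with the replicate number as a block, 1 higher and 1 lower.

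None of the 40 members was called: the edgeR quasi-likelihood test gave 0 at an adjusted p under 0.05, where 0.0439% of all genes tested passed. The lowest adjusted p was 0.291, for H2-Q6. At an unadjusted p under 0.05 there were 4 members with higher and 0 with lower values in the F10-deleted group, H2-Q6, Gbp2, Gbp5 and Irgm2, beside 10.9% of all genes tested in either direction and 6.15% with higher values. This count was 15 without F10-deleted sample 3, beside 6.49% of all genes tested in that setting. It was 2 without F10-intact sample 3 (beside 9.56%) and 1 without F10-intact sample 4 (beside 9.31%). It was 1 without F10-deleted sample 4 (beside 8.27%) and 2 with upper quartile scaling (beside 10.7%). With the replicate number as a block it was again 4, now H2-Q4, H2-Q6, H2-Q7 and Gbp5, beside 14.4% of all genes tested. DESeq2 also called 0 of the 40, with a lowest adjusted p of 0.084, where it called 3.18% of all genes with an adjusted p. The log2 fold change was above 0 for 30 members, with a median of 0.20, where 47.3% of all genes tested were above 0 and their median was -0.02. The groups did not overlap for 4 members, H2-Q6, Cd1d1 and Gbp5 with higher and Irf8 with lower values, beside 16.7% of all genes tested in either direction and 8.99% with higher values. The 95% interval of the fold change lay within 2-fold in either direction for 23 of the 40 (57.5%), beside 62.7% of all genes tested.

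**Figure D1:**
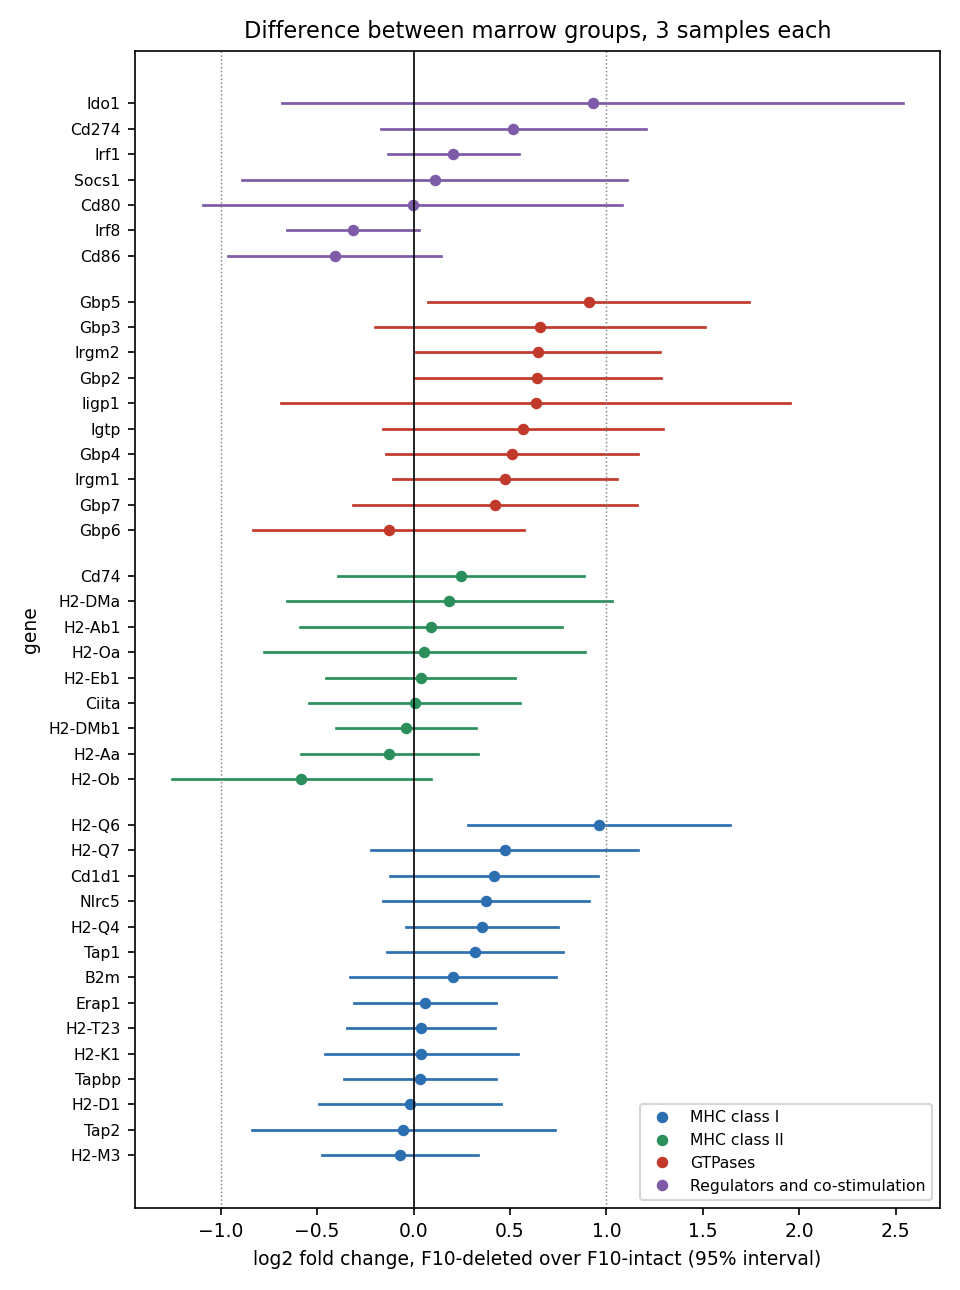
Log2 fold change of each of the 40 members, F10-deleted over F10-intact, with 95% intervals from the edgeR fit (3 samples in each group). Dotted lines mark 2-fold. Intervals of class I and class II genes mostly lie within the dotted lines around 0, and 9 of 10 GTPases lie to the right of 0 with intervals that reach past 2-fold.

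Per kilobase of exon, the 40 genes spanned more than 3 orders of magnitude. Beta-2-microglobulin (B2m) was the highest, at 2306 CPM per kilobase. The classical heavy chains H2-K1 and H2-D1 followed at 793 and 579 CPM per kilobase, and their ranges over the 6 samples overlapped. Cd74, at 356 CPM per kilobase, was the highest class II gene, and its range did not overlap that of H2-Eb1, the next in order. H2-Eb1, Tapbp, H2-Aa, H2-T23, H2-Ab1 and H2-Q4 stood between 160 and 84.5 CPM per kilobase, and each overlapped the next. A gap then separated H2-Q4 from Irf1, at 36.4 CPM per kilobase, after which every gene overlapped its neighbour in the order. Igtp, at 24.9 CPM per kilobase, was the highest GTPase and Gbp5, at 0.854 CPM per kilobase, the lowest. Ciita, the switch for class II transcription, was near the bottom at 1.18 CPM per kilobase, and Socs1 and Cd80 closed the order at 0.730 and 0.688 CPM per kilobase. These levels are means over all 6 samples on the exon length of all annotated isoforms, which can understate genes with long rare exons.

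Summed over their genes, the 14 class I genes took 0.585% to 0.821% of the scaled counts of the samples, the 9 class II genes 0.123% to 0.229% and the 10 GTPases 0.0239% to 0.0616%. F10-deleted sample 3 was the lowest of the 6 for both MHC sums.

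**Figure D2:**
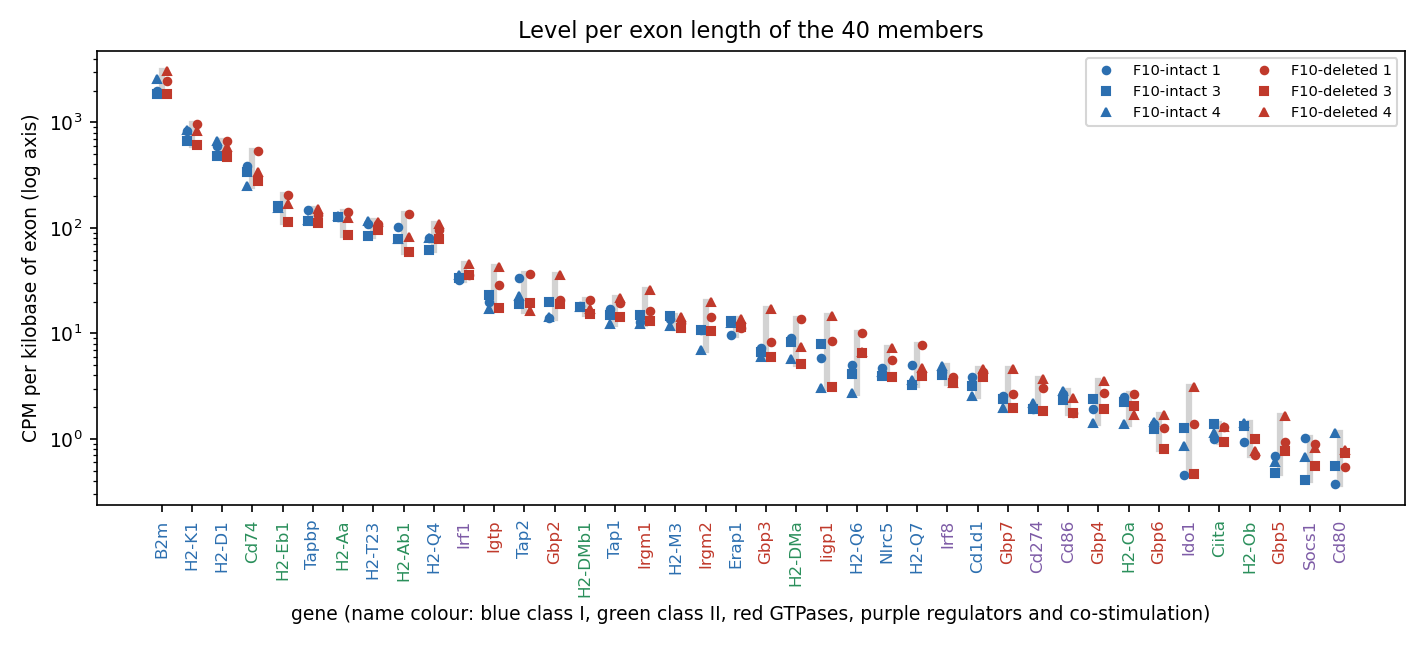
CPM per kilobase of exon (log axis) of the 40 members, ordered by their mean over 6 samples. Blue points are F10-intact and red points F10-deleted samples, with circles, squares and triangles for replicates 1, 3 and 4, and grey bars span the 6 samples. B2m, H2-K1, H2-D1 and Cd74 stand above the rest.

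Of the class I heavy chains, H2-K1, H2-D1, H2-T23 and H2-M3 had fold changes close to 1. H2-K1 was at 2435, 1981 and 2476 CPM in the F10-intact samples and 2839, 1811 and 2431 CPM in the F10-deleted samples. F10-deleted sample 3 was the lowest and F10-deleted sample 1 the highest of the 6, so the F10-deleted group enclosed the F10-intact group. Its fold change was 1.03 (95% interval 0.727 to 1.45), with an edgeR adjusted p of 0.972. H2-D1 was at 1532, 1248 and 1723 CPM in the F10-intact samples and 1730.0, 1209.5 and 1513 CPM in the F10-deleted samples. It had the same highest and lowest samples as H2-K1, with a fold change of 0.989 (95% interval 0.713 to 1.37). For both, a 2-fold difference in either direction lay outside the 95% interval. The nonclassical chain H2-T23, which presents leader peptides to NK receptors, and H2-M3, which presents formylated bacterial peptides, had fold changes of 1.03 (95% interval 0.789 to 1.34) and 0.953 (95% interval 0.721 to 1.26).

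H2-Q6, which encodes a Qa-2 type heavy chain, had the largest log2 fold change of the class I genes. H2-Q6 was at 10.4, 8.66 and 5.702 CPM in F10-intact samples 1, 3 and 4 and 20.9, 13.5 and 13.99 CPM in F10-deleted samples 1, 3 and 4. All F10-deleted samples were above all F10-intact samples, with F10-deleted sample 1 the highest. Its log2 fold change was 0.96 ± 0.29 (SE, adjusted p = 0.291 by edgeR). H2-Q7, of the same type, was at 21.4, 13.7 and 15.4 CPM in the F10-intact samples and 33.5, 16.8 and 19.96 CPM in the F10-deleted samples. Here F10-deleted sample 3 lay within the range of the F10-intact samples, and the log2 fold change was 0.47 ± 0.30 (SE, adjusted p = 0.626 by edgeR). H2-Q4 was at 206, 161 and 209.7 CPM in the F10-intact samples and 251, 205 and 282 CPM in the F10-deleted samples, so that F10-deleted sample 3 again overlapped the F10-intact group (edgeR log2 fold change 0.35, adjusted p = 0.513). Same-numbered samples were taken as pairs from these data and not from a label. H2-Q4, H2-Q6 and H2-Q7 were higher in the F10-deleted sample in 3 of 3 pairs. So were B2m, Cd1d1, Gbp5 and Irf1, and the share of all genes with this trait is not given here. With the number as a block, the adjusted p by edgeR was 0.239, 0.194 and 0.301 for H2-Q4, H2-Q6 and H2-Q7. Their unadjusted p by edgeR was 0.0125, 0.0047 and 0.0281, where 14.4% of all genes tested were under 0.05. Of the 120-base windows in its transcripts, H2-Q6 shared 7.43% with H2-Q7, and H2-Q7 shared 9.12% with other genes, so reads of these copies cannot be assigned with certainty. H2-Q4 shared 0.231%.

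The light chain and the peptide loading genes also overlapped between groups. B2m was at 1727, 1595 and 2205 CPM in F10-intact samples 1, 3 and 4 and 2132, 1618 and 2623 CPM in F10-deleted samples 1, 3 and 4. F10-intact sample 4 was above 2 of the 3 F10-deleted samples, and the log2 fold change was 0.21 ± 0.23 (SE, adjusted p = 0.810 by edgeR). Tap1, a subunit of the peptide transporter, was at 93.7, 82.3 and 67.1 CPM in the F10-intact samples and 107, 77.7 and 119 CPM in the F10-deleted samples. Its partner Tap2 was at 126, 72.4 and 85.3 CPM in the F10-intact samples and 138, 73.1 and 62.4 CPM in the F10-deleted samples. The transporter subunits did not share an order of samples, since F10-deleted sample 4 was the highest for Tap1 and the lowest for Tap2. Their log2 fold changes were 0.32 and -0.05 (edgeR adjusted p = 0.618 and 0.975). Tapbp (tapasin, the bridge between TAP and class I) and Erap1 (a peptide-trimming protease) had fold changes of 1.03 (95% interval 0.780 to 1.35) and 1.04 (95% interval 0.808 to 1.34).

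Nlrc5, the transactivator of class I genes, was at 39.96, 33.7 and 36.6 CPM in F10-intact samples 1, 3 and 4 and 47.99, 32.8 and 62.3 CPM in F10-deleted samples 1, 3 and 4. F10-deleted samples 1 and 4 were above the F10-intact range, and F10-deleted sample 3 was the lowest of the 6. The log2 fold change was 0.38 ± 0.23 (SE, adjusted p = 0.617 by edgeR). Cd1d1, which presents lipids to NKT cells, was at 9.87, 8.14 and 6.64 CPM in the F10-intact samples and 11.1, 9.98 and 11.9 CPM in the F10-deleted samples. The groups did not overlap but came close, at F10-intact sample 1 and F10-deleted sample 3, and the log2 fold change was 0.42 ± 0.23 (SE, adjusted p = 0.577 by edgeR). It shared 8.15% of its 120-base windows with Cd1d2. Over the 14 class I genes, 11 were above 0, 0 were called, and the median log2 fold change was 0.13 beside -0.02 over all genes tested. It was 0.32, with 14 of 14 above 0, without F10-deleted sample 3, and 0.08, with 9 of 14 above 0, without F10-deleted sample 4.

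Class II genes had no common shift between the groups: 6 of 9 were above 0 and 3 below, 0 were called, and the median log2 fold change was 0.04. The F10-deleted samples were farther apart than the F10-intact samples for 7 of 9, with a median coefficient of variation of 24.9% beside 16.8%, where 39.5% of all genes tested had the larger coefficient in the F10-deleted group. H2-Aa, the alpha chain of I-A, was at 487, 486 and 492 CPM in the F10-intact samples and 543, 325 and 474 CPM in the F10-deleted samples. The coefficient of variation was 0.65% in the F10-intact and 24.9% in the F10-deleted group, with F10-deleted sample 1 above and F10-deleted samples 3 and 4 below all F10-intact samples. H2-Eb1, the beta chain of I-E, was at 306, 314 and 301 CPM in F10-intact samples 1, 3 and 4 and 398, 221 and 326 CPM in F10-deleted samples 1, 3 and 4. H2-Ab1, the beta chain of I-A, was at 262, 204 and 200.2 CPM in the F10-intact samples and 347, 153 and 209 CPM in the F10-deleted samples. In all 3 of these chains F10-deleted sample 1 was the highest and F10-deleted sample 3 the lowest of the 6. H2-Aa had a log2 fold change of -0.13 ± 0.20 (SE, adjusted p = 0.880 by edgeR). The values of H2-Eb1 and H2-Ab1 were 0.04 and 0.09 (edgeR adjusted p = 0.973 and 0.945). Without F10-deleted sample 1 the median of the 9 genes was -0.13, with 0 of 9 above 0, and without F10-deleted sample 3 it was 0.18.

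Cd74, the invariant chain that blocks the class II groove until loading, was at 652, 565 and 422 CPM in the F10-intact samples and 905, 469 and 571 CPM in the F10-deleted samples. F10-deleted sample 1 had 1.93 times the level of F10-deleted sample 3, and the log2 fold change between groups was 0.25 ± 0.27 (SE, adjusted p = 0.810 by edgeR). The peptide exchange gene H2-DMa was at 31.5, 28.5 and 19.6 CPM in F10-intact samples 1, 3 and 4 and 47.04, 17.8 and 25.9 CPM in F10-deleted samples 1, 3 and 4. The ratio of F10-deleted sample 1 to sample 3 was 2.65 there, the widest of the class II genes, and 1.36 for H2-DMb1, the other DM subunit. H2-DMb1 was at 30.5, 30.1 and 30.2 CPM in the F10-intact samples and 34.5, 25.5 and 28.5 CPM in the F10-deleted samples, a log2 fold change of -0.04 ± 0.16 (SE, adjusted p = 0.960 by edgeR). It shared 7.95% of its windows with H2-DMb2. Ciita did not follow the chains in every sample: it was at 9.597, 13.3 and 10.8 CPM in the F10-intact samples and 12.5, 8.88 and 12.5 CPM in the F10-deleted samples, with the highest value in F10-intact sample 3 (edgeR log2 fold change 0.01, adjusted p = 0.997).

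The H2-O subunits, which restrain H2-DM and are best known from B cells, had fold changes of opposite sign. H2-Ob was at 5.08, 7.2 and 7.67 CPM in F10-intact samples 1, 3 and 4 and 3.78, 5.33 and 4.18 CPM in F10-deleted samples 1, 3 and 4. Only F10-deleted sample 3 overlapped the F10-intact range, and the log2 fold change was -0.58 ± 0.29 (SE, adjusted p = 0.528 by edgeR). H2-Oa, at 1.97 to 3.78 CPM, had a log2 fold change of 0.06 and its highest value in F10-deleted sample 1. In count, F10-deleted sample 1 was the highest sample for 7 of 9 class II genes, beside 11.7% of all genes tested, and F10-deleted sample 3 was the lowest for 6 of 9, beside 15.2%.

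Markers of cells that carry class II were set beside these values. The 7 macrophage markers summed to 362 to 405 CPM in the F10-intact and 310.3 to 385 CPM in the F10-deleted samples, with 1 of 7 above 0 in log2 fold change. The 7 dendritic cell markers summed to 52.4 to 61.97 CPM in the F10-intact and 45. to 58.7 CPM in the F10-deleted samples, with 3 of 7 above 0, and the 5 B cell markers to 11.5 to 17.5 CPM in the F10-intact and 11.3 to 14.7 CPM in the F10-deleted samples, with 2 of 5 above 0. No marker of these 3 lists was at 0 in any sample. Averaged as log2 levels relative to the F10-intact mean, the dendritic cell markers were at 0.15, -0.46 and -0.08 in F10-deleted samples 1, 3 and 4. By that measure F10-deleted sample 1 was the highest and sample 3 the lowest of the 6, as for H2-Aa, H2-Ab1 and H2-Eb1. The macrophage markers were at -0.11, -0.26 and -0.29 in these samples and the B cell markers at -0.16, 0.15 and -0.19. The T and NK cell list, which holds the sources of interferon gamma, summed to 61.5 CPM in F10-deleted sample 1, 25.04 in sample 3 and 50.6 in sample 4, and to 37.5 to 47.8 CPM in the F10-intact samples. For the summed T and NK markers, F10-deleted sample 1 was thus the highest and sample 3 the lowest of the 6. This was also so for H2-Aa, H2-Ab1 and H2-Eb1. As a mean log2 level relative to the F10-intact mean, F10-deleted sample 4 was the highest for this list, at 0.21. F10-deleted sample 1 was at 0.19 there and sample 3 at -0.60. Cd3e, Cd3d, Cd8a, Cd8b1 and Nkg7 were highest in F10-deleted sample 1, while Ncr1 and Klrb1c were lowest there. Cd4 and Prf1 were highest in F10-intact samples, and for Cd4 all F10-deleted samples were below all F10-intact samples. Cd8a was the largest single part of the sum in every sample. It was at 22.2, 6.09 and 17.1 CPM in F10-deleted samples 1, 3 and 4. The part of these cells in the class II values was not tested.

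**Figure D3:**
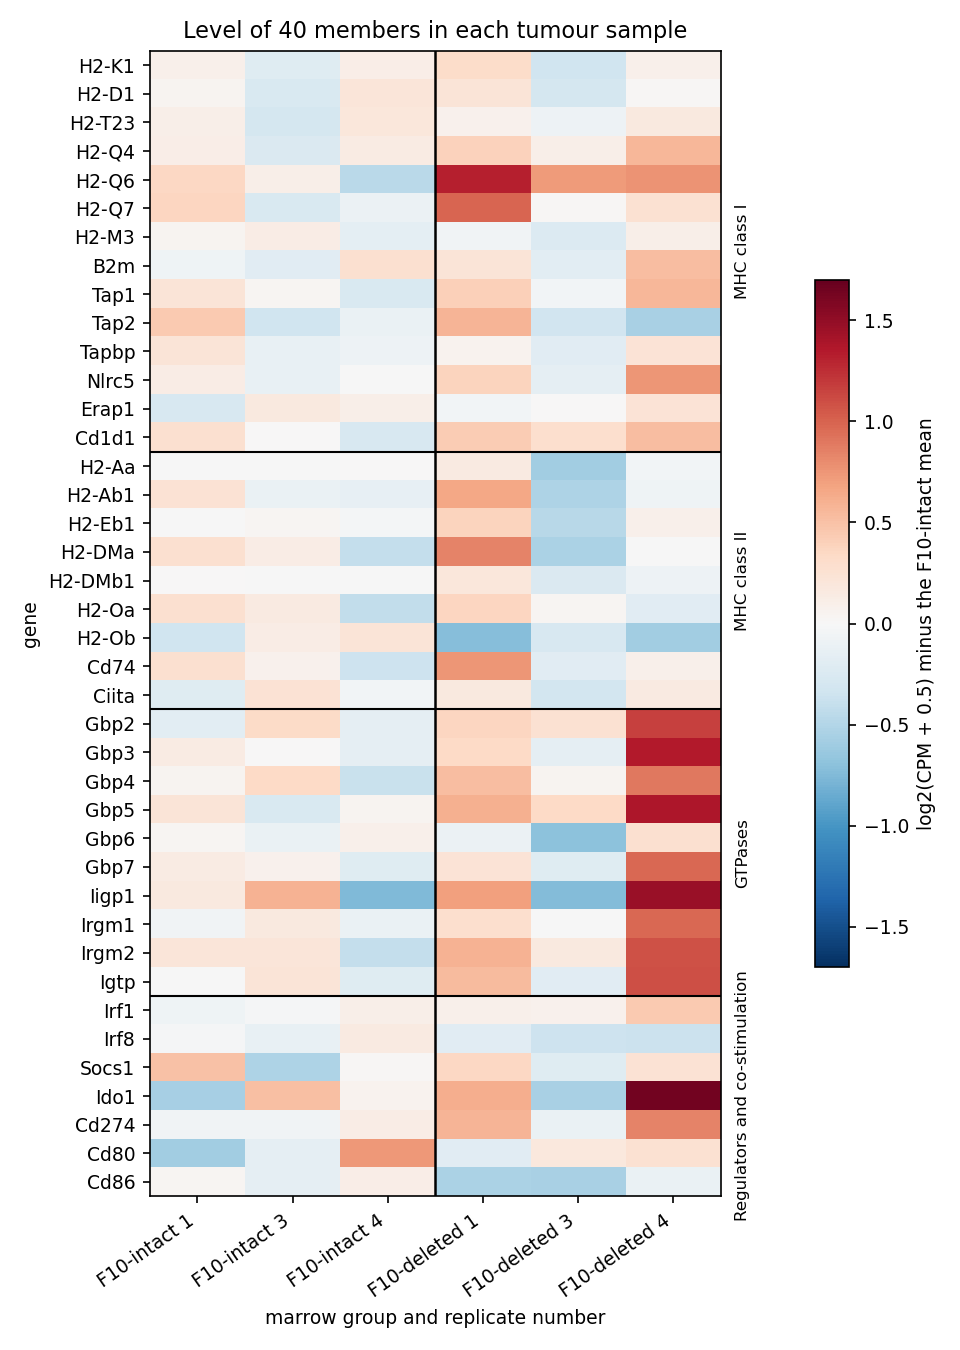
Level of each member in each sample as log2(CPM + 0.5) minus the mean of the 3 F10-intact samples (red above, blue below). Columns are samples and rows are genes, split into class I, class II, GTPases, and regulators and co-stimulation. The last column, F10-deleted sample 4, is red for all 10 GTPases, while class II genes are mostly red in F10-deleted sample 1 and blue in F10-deleted sample 3.

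The GTPases had the largest median of the 4 gene groups, and F10-deleted sample 4 stood out among the samples. Of 10 genes, 9 were above 0, 0 were called, and the median log2 fold change was 0.60. F10-deleted sample 4 was the highest of the 6 samples for 10 of 10 genes, beside 15.2% of all genes tested. F10-deleted sample 1 exceeded all F10-intact samples for 9 of 10, beside 23.02% of all genes. F10-deleted sample 3 did so for 1 of 10, beside 26.8%, and lay within the F10-intact range for 8. Without F10-deleted sample 4 the median was 0.17, and without F10-deleted sample 3 it was 0.86. With limma-voom sample weights it was 0.23, with 8 of 10 above 0. F10-intact sample 4 was the lowest sample for 7 of 10 genes, beside 27.8% of all genes, and the median without it was 0.44.

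Gbp2, a guanylate-binding protein that coats pathogen vacuoles, was at 35.4, 50.3 and 35.98 CPM in the F10-intact samples and 51.8, 47.8 and 90.3 CPM in the F10-deleted samples. F10-deleted samples 1 and 3 were close to F10-intact sample 3, and F10-deleted sample 4 stood clear of all others. The log2 fold change was 0.64 ± 0.27 (SE, adjusted p = 0.458 by edgeR). Gbp5, which promotes inflammasome assembly, was at 4.61, 3.17 and 4.04 CPM in the F10-intact samples and 6.195, 5.08 and 10.9 CPM in the F10-deleted samples. Its groups did not overlap, unlike those of the other 9 GTPases, with a log2 fold change of 0.91 ± 0.36 (SE, adjusted p = 0.414 by edgeR). Gbp3 was at 23.99, 21.9 and 19.4 CPM in F10-intact samples 1, 3 and 4 and 27.4, 19.5 and 55.9 CPM in F10-deleted samples 1, 3 and 4. F10-deleted sample 3 was level with F10-intact sample 4, and F10-deleted sample 4 had 2.87 times the level of F10-deleted sample 3. Gbp4 and Gbp7 had log2 fold changes of 0.51 and 0.42 (edgeR adjusted p = 0.574 and 0.691). Gbp6, at 8.31, 7.46 and 8.71 CPM in the F10-intact samples and 7.56, 4.82 and 9.98 CPM in the F10-deleted samples, was the GTPase below 0, at -0.13 ± 0.30 (SE, adjusted p = 0.925 by edgeR). Of its 120-base windows 62.3% also occurred in transcripts of other gene models, and of those of Gbp7 9.33%, so their counts depend on how shared reads were treated.

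Among the immunity-related GTPases, Irgm1 and Irgm2 are regulators that guard self membranes, and Igtp (Irgm3) is the third of that kind. Irgm1 was at 74.1, 86.4 and 71.1 CPM in the F10-intact samples and 93.98, 76.4 and 151 CPM in the F10-deleted samples. Irgm2 was at 40.1, 39.7 and 25.8 CPM in F10-intact samples 1, 3 and 4 and 52.4, 38.8 and 73.9 CPM in F10-deleted samples 1, 3 and 4. Igtp was at 40.1, 46.7 and 34.7 CPM in the F10-intact samples and 58.4, 35.1 and 86.8 CPM in the F10-deleted samples. All 3 had their highest value in F10-deleted sample 4 and their lowest in F10-intact sample 4. In that order, the log2 fold changes were 0.47, 0.64 and 0.57 (edgeR adjusted p = 0.552, 0.449 and 0.574). Irgm2 and Igtp overlap in the annotation and shared 1.89% and 3.23% of their 120-base windows with each other. Their counts thus depend in part on how shared reads were treated. Iigp1, an effector that ruptures parasite vacuoles, was at 33.9, 45.9 and 17.7 CPM in the F10-intact samples and 49.2, 17.9 and 84.4 CPM in the F10-deleted samples. It was the most variable GTPase, with a ratio of 4.71 between F10-deleted samples 4 and 3 and a log2 fold change of 0.63 ± 0.56 (SE, adjusted p = 0.750 by edgeR), which turned to -0.14 with limma-voom sample weights. Within the F10-deleted group the coefficient of variation of the 10 GTPases had a median of 39.5%, beside 16.6% in the F10-intact group. It was larger in the F10-deleted group for 10 of 10 genes, while over all genes tested this was so for 39.5%.

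Further interferon-inducible GTPases had the same highest sample. Of 14 in the list 9 were tested, 8 were above 0 with a median of 0.68, 0 were called, and F10-deleted sample 4 was the highest for 8. Gbp9, which had the smallest p, was at 30.6, 31.6 and 22.5 CPM in F10-intact samples 1, 3 and 4 and 37.2, 32.3 and 49.4 CPM in F10-deleted samples 1, 3 and 4, with a log2 fold change of 0.49 ± 0.21 (SE, adjusted p = 0.459 by edgeR). Tgtp2 was at 0.92 (edgeR adjusted p = 0.504). The annotated genes Gbp8 and Gbp9 overlap the member Gbp4 on the minus strand of chromosome 5, so their counts may not be fully separate from it. Gbp4 shared 0.855% of its 120-base windows with other genes.

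Interferon gamma itself was close to the limit of detection. Ifng had 5, 2 and 3 counts in F10-intact samples 1, 3 and 4 and 3, 2 and 9 counts in F10-deleted samples 1, 3 and 4, below the filter, so it was not tested. The receptor subunits Ifngr1 and Ifngr2 had log2 fold changes of 0.10 ± 0.13 (SE, adjusted p = 0.834 by edgeR) and 0.10 ± 0.17 (SE, adjusted p = 0.888 by edgeR). Cxcl9, a T cell chemokine induced by interferon gamma, was at 4.43, 11.3 and 10.3 CPM in the F10-intact samples and 12.3, 5.84 and 23.4 CPM in the F10-deleted samples. Its groups overlapped widely, with F10-deleted sample 4 the highest, and the log2 fold change was 0.67 ± 0.54 (SE, adjusted p = 0.719 by edgeR). Cxcl11, a related chemokine, had a log2 fold change of 1.38 ± 0.66 (SE, adjusted p = 0.510 by edgeR). Il18, a cytokine that primes interferon gamma secretion, had the smallest p of this list, at 7.11, 9.51 and 6.53 CPM in the F10-intact samples and 10.9, 15.99 and 11.8 CPM in the F10-deleted samples, with groups that did not overlap and a log2 fold change of 0.74 ± 0.26 (SE, adjusted p = 0.346 by edgeR). Of 15 tested genes in the interferon gamma signalling list 13 were above 0, 0 were called, and the median was 0.29.

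**Figure D4:**
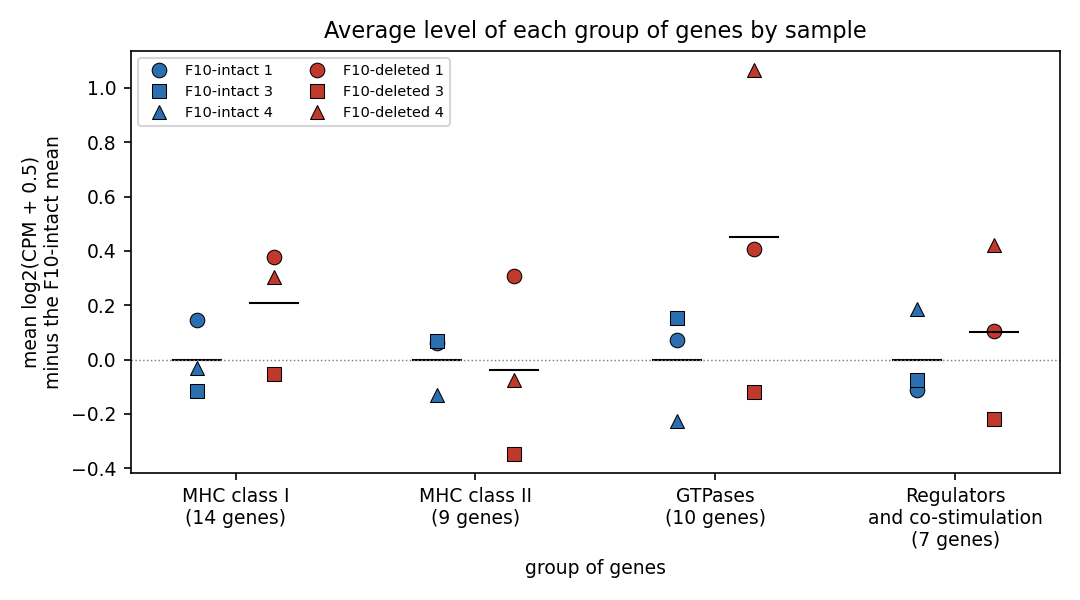
Mean over genes of log2(CPM + 0.5) minus the F10-intact mean, for each of 4 gene groups and each sample. Blue is F10-intact, red F10-deleted, shapes mark replicates 1, 3 and 4, and bars are group means. F10-deleted sample 4 is at 1.07 for GTPases but -0.07 for class II, and F10-deleted sample 1 is the highest for class II at 0.31.

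As averages over each gene group, relative to the F10-intact mean, F10-deleted samples 1, 3 and 4 stood at 0.41, -0.12 and 1.07 log2 units for GTPases and at 0.31, -0.35 and -0.07 for class II. For class I they stood at 0.38, -0.05 and 0.30. The highest sample for GTPases, F10-deleted sample 4, was thus below 2 F10-intact samples for class II. The F10-intact samples ranged from -0.23 to 0.15 for GTPases, from -0.13 to 0.07 for class II and from -0.12 to 0.15 for class I.

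The 7 regulators and co-stimulatory genes were mixed, with 4 above 0, 0 called and a median of 0.11, which was -0.14 without F10-intact sample 3. Irf1, the transcription factor whose promoter is shown above, was at 127, 132 and 144 CPM in F10-intact samples 1, 3 and 4 and 142, 141 and 183 CPM in F10-deleted samples 1, 3 and 4. F10-deleted sample 4 was the highest, and F10-intact sample 4 was above the other 2 F10-deleted samples (log2 fold change 0.21, SE 0.15, adjusted p = 0.669 by edgeR). Irf8, a factor of dendritic cells, monocytes and B cells, was at 30.6, 28.3 and 34.5 CPM in the F10-intact samples and 27.2, 24.1 and 23.9 CPM in the F10-deleted samples. Its groups did not overlap, with lower values in all 3 F10-deleted samples and a log2 fold change of -0.31 ± 0.15 (SE, adjusted p = 0.503 by edgeR). Cd86, a co-stimulatory ligand of CD28 on antigen-presenting cells, was at 9.87, 8.66 and 10.5 CPM in the F10-intact samples and 6.51, 6.43 and 8.87 CPM in the F10-deleted samples. Its lower values overlapped between F10-deleted sample 4 and F10-intact sample 3, at a log2 fold change of -0.41 ± 0.24 (SE, adjusted p = 0.597 by edgeR). The markers of macrophages and dendritic cells, the cells that carry Irf8 and Cd86, had the sums given with the class II genes, and their part in these values was not tested. Cd80, the other CD28 ligand, was at 1.38 to 4.25 CPM, and its log2 fold change of -0.0048 had a sign that depended on the scaling, at 0.03 with upper quartile factors.

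Cd274 (PD-L1), the inhibitory ligand of PD-1, was at 6.92, 6.94 and 7.98 CPM in F10-intact samples 1, 3 and 4 and 11.1, 6.68 and 13.5 CPM in F10-deleted samples 1, 3 and 4. F10-deleted samples 1 and 4 were above and F10-deleted sample 3 below all F10-intact samples, the same split as for Nlrc5, and the log2 fold change was 0.52 ± 0.30 (SE, adjusted p = 0.589 by edgeR). Ido1, a tryptophan-degrading enzyme induced by interferon gamma, was at 0.831, 2.31 and 1.56 CPM in the F10-intact samples and 2.52, 0.846 and 5.63 CPM in the F10-deleted samples. It had between 9 and 66 counts per sample, and its 95% interval of -0.68 to 2.54 on the log2 scale was the widest of the 40. Socs1, the feedback inhibitor of the receptor, was at 1.2 to 2.95 CPM with a log2 fold change of 0.11 ± 0.43 (SE, adjusted p = 0.957 by edgeR).

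Further genes of these pathways gave 0 calls. Of 19 tested class I pathway genes 12 were above 0, with a median of 0.04. The immunoproteasome subunits Psmb8 and Psmb9 had log2 fold changes of 0.18 ± 0.17 (SE, adjusted p = 0.765 by edgeR) and 0.08 ± 0.19 (SE, adjusted p = 0.930 by edgeR). Calr, a chaperone of class I assembly, had the smallest p of this list at 1869, 1562 and 1473 CPM in the F10-intact samples and 1336, 985 and 1200.5 CPM in the F10-deleted samples, with groups that did not overlap and lower values in the F10-deleted group (log2 fold change -0.48, SE 0.19, adjusted p = 0.405 by edgeR). Mr1, which presents vitamin metabolites, was at 41.1, 41.4 and 36.4 CPM in F10-intact samples 1, 3 and 4 and 45.99, 60.6 and 46.9 CPM in F10-deleted samples 1, 3 and 4 (log2 fold change 0.37, SE 0.16, adjusted p = 0.450 by edgeR). Of 12 tested class II pathway genes 4 were above 0, with a median of -0.04. H2-DMb2 had the smallest p, at 5.72, 6.51 and 7.36 CPM in the F10-intact samples and 3.89, 3.47 and 4.69 CPM in the F10-deleted samples. Its groups did not overlap, and the log2 fold change was -0.70 ± 0.27 (SE, adjusted p = 0.397 by edgeR). Ctsl, a lysosomal protease, was at -0.67 (edgeR adjusted p = 0.451).

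Among 8 tested co-stimulation genes outside the 40, 7 were above 0 with a median of 0.26. Cd276, a B7 family member, was at 23.8, 21.7 and 11.4 CPM in the F10-intact samples and 28.98, 46.8 and 39.7 CPM in the F10-deleted samples, and its groups did not overlap (log2 fold change 1.02, SE 0.30, adjusted p = 0.283 by edgeR). Lgals9, a ligand of the receptor Tim-3, was highest in F10-deleted sample 4 and was at 0.61 (edgeR adjusted p = 0.558).

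Some markers of other tissues also separated the marrow groups without overlap, but no tissue marker had an edgeR adjusted p under 0.05. Skeletal muscle markers did not overlap for 5 of 5 genes and summed to 7.36 to 67.3 CPM in the F10-intact and 472 to 1214 CPM in the F10-deleted samples. Fibroblast markers did not overlap for 3 of 4 and summed to 195 to 225 CPM in the F10-intact and 345 to 418 CPM in the F10-deleted samples. Endothelial markers did not overlap for 2 of 4 and summed to 19.5 to 38.02 CPM in the F10-intact and 39.5 to 51.5 CPM in the F10-deleted samples. For each of these separated markers, the F10-deleted samples were the higher ones. In the other marker lists Trp63, an epithelial marker, also separated with higher values. Mertk, a macrophage marker, and Cd4 separated with lower values in the F10-deleted group. Of all genes tested, 16.7% did not overlap in either direction, 8.99% with higher and 7.67% with lower values in that group. Adipocyte markers summed to 24.6, 2.88 and 34.9 CPM in F10-deleted samples 1, 3 and 4 and to 0.622 to 7.198 CPM in the F10-intact samples, with 3 of 3 tested genes above 0 in log2 fold change and a median of 2.88. Their F10-deleted samples stood in the same order as for the GTPase averages, sample 4 above sample 1 above sample 3. Ptprc, the summed dendritic cell markers and the mean log2 level of the T and NK markers had this order too. With 3 samples only a few orders are possible. The skeletal muscle sums, at 1214, 472 and 891 CPM in F10-deleted samples 1, 3 and 4, stood in another order. It was the order of the class I and class II averages, and also of the summed T and NK markers and the mean log2 level of the dendritic cell markers. The untested adipocyte gene, Lep, had 0 counts in F10-intact sample 3 and F10-deleted sample 1. Neutrophil markers were below 0 in log2 fold change for 5 of 5 and summed to 113 to 238 CPM in the F10-intact and 89.7 to 120.1 CPM in the F10-deleted samples. The part of these tissues in the values of the 40 genes was not tested.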

How the data were processed

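Poly-A RNA of whole prostate tumours went into strand-directional libraries and was read from 1 end for 120 bases, as the labels' protocols state. STAR 2.7.10a, DESeq2 and GRCm38 are named in the submitters' processing notes, while the sources used here do not give the counting program, its strand setting or its annotation. The authors deposited raw counts for 21718 gene IDs, of which 21605 matched a GENCODE M21 symbol. Samples were grouped by the genotype in their labels, and no deposited sample column was left unused.

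Counts were tested with edgeR 4.0.16 (R 4.3.3; quasi-likelihood, robust, TMM scaling, filterByExpr at a minimum count of 10), with Benjamini-Hochberg adjustment over all 15963 genes tested and a threshold of 0.05. Standard errors are the log2 fold change over the root of the F statistic, and averages used log2(CPM + 0.5). The members and all gene lists were chosen with earlier results of these data known, so lists are described by counts and medians. Named genes are the 40 members, a fixed set from the other lists, and the 2 genes with the smallest p in each list. Some items are not reported here. Alternatives were other scalings and filters, DESeq2 1.42.0, limma-voom (limma 3.58.1) with sample weights, leaving out each sample, and the replicate number as a block. Same-numbered samples of the groups deviated together (correlations of 0.37, 0.14 and 0.19 over all genes for numbers 1, 3 and 4), so the numbers were taken to pair them, from the data and not from a label. No such correlation is given for samples with different numbers, so another pairing may match as well. The pairs and the block fits rest on these same counts. The scripts were tested on simulated data. Depth was 9237308 to 11821588 counts per sample, and samples of a group differed beyond sampling noise (chi-square per degree of freedom of 24.4 or more).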

Additional observations from a re-analysis of the deposited data

How the results depend on the processing

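No setting tried called any of the 40 members. The count over all genes was 7, and 7 with RLE or upper quartile scaling, 10 without a filter, 2 with scaling without the 50 most abundant genes, 2 when a gene needed 1 CPM in 3 or more samples, 85 at an adjusted p under 0.1, 487 with DESeq2 and 172 with limma-voom with sample quality weights. Leaving out 1 sample gave 0 to 72 calls (72 without F10-intact sample 1, 18 without F10-deleted sample 3, 1 without F10-deleted sample 1, and 0 without either F10-intact sample 3 or sample 4 of the F10-deleted group). With the replicate number as a block the count was 2, 1 with higher and 1 with lower values in the F10-deleted group. The block medians were 0.13 for class I, 0.0018 for class II, 0.49 for GTPases and 0.16 for regulators.

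Leaving out 1 sample moved the medians from 0.08 to 0.32 (class I), -0.13 to 0.18 (class II), 0.17 to 0.86 (GTPases) and -0.14 to 0.30 (regulators, lowest without F10-intact sample 3). With limma-voom weights, which ranged from 0.392 for F10-intact sample 4 to 3.02 for F10-intact sample 3, the medians were 0.21, -0.08, 0.23 and 0.19. Of the 40 genes 21 kept their sign throughout. Signs reversed for H2-D1 at 0.0068 with upper quartile scaling, for H2-Eb1 at -0.0032 with the block, and under limma-voom for H2-D1 at 0.11, Tap2 at 0.096, Erap1 at -0.043, H2-Eb1 at -0.079, H2-DMa at -0.095, H2-Oa at -0.059, Ciita at -0.21 and Iigp1 at -0.14. Cd80 reversed to 0.0058 with RLE, 0.030 with upper quartile scaling, 0.0094 without the 50 most abundant genes, 0.0042 with DESeq2, 0.29 with limma-voom, 0.0071 without a filter, 0.0087 with the 1 CPM filter and 0.091 with the block. Leaving out 1 sample reversed 18 genes, with ranges of -0.0799 to 0.23 for H2-K1, -0.14 to 0.14 for H2-D1, -0.095 to 0.14 for H2-T23, -0.16 to 0.045 for H2-M3, -0.45 to 0.23 for Tap2, -0.069 to 0.19 for Tapbp, -0.035 to 0.15 for Erap1, -0.25 to 0.089 for H2-Aa, -0.26 to 0.35 for H2-Ab1, -0.13 to 0.27 for H2-Eb1, -0.25 to 0.48 for H2-DMa, -0.13 to 0.088 for H2-DMb1, -0.15 to 0.25 for H2-Oa, -0.038 to 0.46 for Cd74, -0.074 to 0.18 for Ciita, -0.40 to 0.14 for Gbp6, -0.16 to 0.51 for Socs1 and -0.27 to 0.55 for Cd80. The causes were not tested. At 3 samples a group the 95% interval reached 2-fold for 17 members, 9 of them GTPases, beside 5951 of all 15963 genes tested.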
